A study of Saccharomyces cerevisiae with 12 samples.

Results

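The genes described here are 10 yeast genes of the mating response, *PRM1*, *FIG1*, *FIG2*, *FUS1*, *FUS2*, *FUS3*, *AGA1*, *KAR4*, *GPA1* and *STE12*, out of 5656 genes that a probe set of the array names alone. They are read by 12 of 9275 probe sets. *FUS3* has 3 probe sets and each of the others has 1. The genes were chosen by name as pheromone-induced or pheromone-signalling genes with the *rad23Δ* minus wildtype differences of these arrays in view, where *PRM1* and *FIG1* stood low in *rad23Δ*. That difference, and any other that uses *rad23Δ* or wildtype arrays, is therefore given for them as a description without a test. The comparison of *rad4Δrad23Δ* with *rad4Δ* shares no array with it and is the one in which these genes were tested.

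The study asked which genes depend on Rad4 and Rad23, the partners of a heterodimer that recognises DNA damage in nucleotide excision repair. Rad23 also carries ubiquitinated proteins to the proteasome. The 4 strains were wildtype BY4742 (a haploid of mating type alpha) and its *rad4Δ*, *rad23Δ* and *rad4Δrad23Δ* derivatives, with 3 arrays each that the design text calls biological repeats. The single mutants came from a strain collection and the double mutant was made in BY4742 *rad23Δ* by putting a *HIS3* fragment in place of *RAD4*, so it carries a marker that the others lack. All cells were untreated, grew in YPD to an optical density of 0.5 to 0.6, and were given neither pheromone nor UV. Each strain is a single deletion line, so a strain and its deletion cannot be told apart in these data.

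In *Saccharomyces cerevisiae* a peptide pheromone from cells of the opposite mating type binds a receptor that frees the G protein beta-gamma dimer from the alpha subunit Gpa1. A kinase cascade then activates the MAP kinase Fus3, which releases the transcription factor Ste12 to induce genes for cell cycle arrest, agglutination, cell fusion and nuclear fusion. The same genes have a basal transcription in cells without pheromone, and this is what the arrays read.

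Values are log2 values after the robust multichip average (RMA), so a difference of 1 is a doubling of signal. They are comparable for a gene between arrays and not between genes. Array medians lay between 5.83 and 5.90. The 4 alpha-specific probe sets (*MF(ALPHA)1*, *MF(ALPHA)2*, *STE3*, *SAG1*) read between 9.20 and 12.21 on every array. The 8 **a**-specific ones (such as *STE2* and *MFA1*) read between 2.97 and 6.35, the highest being *MFA2* (5.43 to 6.35). This is the pattern of an alpha strain, but only a rough reading, since it sets levels of different genes side by side. *RAD23* lay at 9.32 to 9.82 on the wildtype and *rad4Δ* arrays and at 3.66 to 4.88 on the others. *RAD4* went against the label on 2 arrays. It read 5.11, 5.12 and 3.42 in wildtype replicates 1 to 3, and 3.49, 5.47 and 3.01 in *rad4Δ* replicates 1 to 3. It read 5.12 to 5.44 in *rad23Δ* and 2.70 to 2.99 in *rad4Δrad23Δ*. The array labelled wildtype replicate 3 thus lay with the *rad4Δ* arrays, and the array labelled *rad4Δ* replicate 2 with wildtype. No array was given another label. Results are given with all arrays, and for several comparisons also without these 2. In RNA from whole cultures, fewer cells that express a gene and less RNA per cell cannot be told apart.

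The 5 genes with the largest differences encode surface and membrane proteins of mating cells. *PRM1*, *FIG1*, *FIG2*, *AGA1* and *FUS1* were low on all 3 *rad23Δ* arrays, 1.18, 1.17, 0.88, 0.78 and 0.43 below wildtype on the log2 scale. In *rad4Δrad23Δ* they lay nearer to wildtype. The choice of genes on the *rad23Δ* minus wildtype difference favours both observations, so they are descriptions from which nothing follows. The 5 remaining genes, which hold all the signalling genes of the group, were at most 0.33 lower in *rad23Δ*. In cells without *RAD4*, limma called 0 of the 12 probe sets on loss of *RAD23*, where it called 0.765% of all probe sets.

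**Figure D1:**
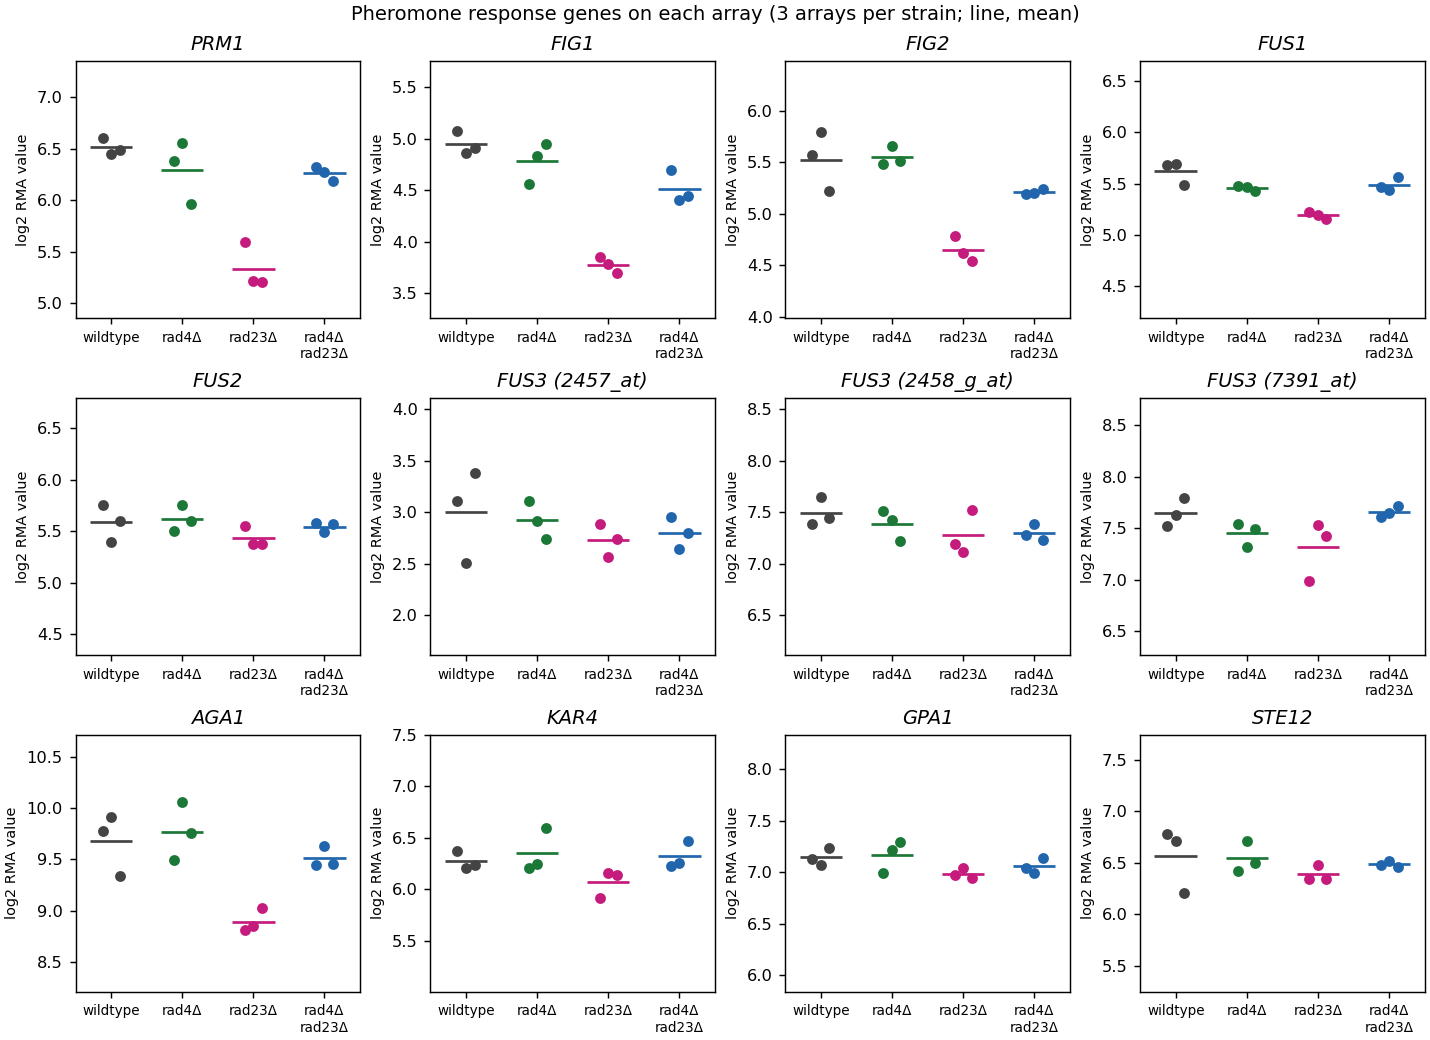
Log2 RMA value (vertical axis) of the 12 probe sets on each of 12 arrays, by strain (horizontal axis); points are arrays in the order of replicates 1 to 3 and lines are means of 3. All panels span the same log2 range, and the *rad23Δ* points of *PRM1*, *FIG1*, *FIG2*, *FUS1* and *AGA1* lie below every other point of their panel.

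*PRM1* (YNL279W) encodes a membrane protein that helps the plasma membranes of mating partners to fuse. It read 6.60, 6.45 and 6.49 in wildtype, 6.38, 6.55 and 5.96 in *rad4Δ*, 5.59, 5.21 and 5.20 in *rad23Δ*, and 6.32, 6.27 and 6.19 in *rad4Δrad23Δ*. The *rad23Δ* arrays lay below all others, *rad4Δ* overlapped with wildtype, and the double mutant lay a little below wildtype without overlap. The mean was 1.18 lower in *rad23Δ* than in wildtype (standard error, SE, of limma 0.15), which is a 2.27-fold lower signal. In *rad4Δrad23Δ* it was 0.93 higher than in *rad23Δ* (SE 0.15) and 0.25 lower than in wildtype.

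*FIG1* (YBR040W) encodes a membrane protein needed for calcium influx during mating and for fusion. It read 5.08, 4.86 and 4.91 in wildtype, 4.56, 4.83 and 4.95 in *rad4Δ*, 3.85, 3.78 and 3.70 in *rad23Δ*, and 4.70, 4.41 and 4.44 in *rad4Δrad23Δ*. Again the *rad23Δ* arrays lay below all others and the double mutant between *rad23Δ* and wildtype, without overlap with either. The *rad23Δ* mean was 1.17 below wildtype (SE 0.12), a 2.26-fold lower signal. The double mutant was 0.74 above *rad23Δ* and 0.43 below wildtype.

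*FIG2* (YCR089W) and *AGA1* (YNR044W) encode cell wall proteins of agglutination. Aga1 is the anchor of the **a**-agglutinin, and Fig2 is a related adhesin of mating cells. *FIG2* read 5.57, 5.79 and 5.22 in wildtype, 5.48, 5.66 and 5.51 in *rad4Δ*, 4.78, 4.62 and 4.54 in *rad23Δ*, and 5.19, 5.20 and 5.24 in *rad4Δrad23Δ*. *AGA1* read 9.78, 9.91 and 9.34 in wildtype, 9.49, 10.06 and 9.76 in *rad4Δ*, 8.81, 8.85 and 9.03 in *rad23Δ*, and 9.45, 9.63 and 9.46 in *rad4Δrad23Δ*. For both, the 3 *rad23Δ* arrays were the lowest of the 12. The double mutant overlapped with wildtype through the array labelled wildtype replicate 3 and lay below both other wildtype arrays. *FIG2* was 0.88 lower in *rad23Δ* than in wildtype (SE 0.13; 1.84-fold). *AGA1* was 0.78 lower (SE 0.17; 1.72-fold). In both genes the array labelled wildtype replicate 3 was the lowest of wildtype and the array labelled *rad4Δ* replicate 2 the highest of *rad4Δ*. Without these 2 arrays the *rad23Δ* minus wildtype difference was -1.03 for *FIG2* and -0.95 for *AGA1*, against -1.19 for *PRM1* and -1.19 for *FIG1*. The *rad4Δrad23Δ* minus wildtype difference moved from -0.32 to -0.47 for *FIG2* and from -0.16 to -0.33 for *AGA1*.

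*FUS1* (YCL027W) encodes a membrane protein of the fusion site and is a common reporter of pheromone signalling. It read 5.68, 5.69 and 5.49 in wildtype, 5.48, 5.47 and 5.43 in *rad4Δ*, 5.22, 5.19 and 5.16 in *rad23Δ*, and 5.47, 5.44 and 5.56 in *rad4Δrad23Δ*. The *rad23Δ* arrays again lay below all others, and the 3 *rad4Δ* arrays lay just below wildtype. The *rad23Δ* mean was 0.43 below wildtype (SE 0.09; 1.35-fold) and the *rad4Δ* mean 0.16 below it. *FUS2* (YMR232W), which encodes a cytoplasmic fusion factor, read 5.76, 5.40 and 5.60 in wildtype and 5.55, 5.38 and 5.38 in *rad23Δ*. Those arrays overlapped, and the *rad4Δ* arrays (5.50 to 5.76) and double mutant arrays (5.49 to 5.58) lay within the wildtype range.

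The means of the signalling genes spanned at most 0.34 between strains. *GPA1* (YHR005C), for the G protein alpha subunit, read 7.13, 7.07 and 7.24 in wildtype, 6.99, 7.22 and 7.29 in *rad4Δ*, 6.97, 7.04 and 6.94 in *rad23Δ*, and 7.04, 6.99 and 7.14 in *rad4Δrad23Δ*. Its *rad23Δ* arrays lay just below wildtype, by 0.16 in the mean, and overlapped with both other mutants. *KAR4* (YCL055W), for a partner of Ste12 at genes of nuclear fusion, read 6.37, 6.21 and 6.24 in wildtype, 6.21, 6.25 and 6.60 in *rad4Δ*, 5.92, 6.16 and 6.14 in *rad23Δ*, and 6.23, 6.26 and 6.47 in *rad4Δrad23Δ*. Its *rad23Δ* arrays were the lowest 3 of the 12, by 0.20 below wildtype in the mean.

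*STE12* (YHR084W), for the transcription factor of the pathway, read 6.78, 6.71 and 6.20 in wildtype, 6.42, 6.71 and 6.50 in *rad4Δ*, 6.34, 6.48 and 6.34 in *rad23Δ*, and 6.48, 6.52 and 6.46 in *rad4Δrad23Δ*. The strains overlapped. Its 3 highest arrays were wildtype replicates 1 and 2 and the array labelled *rad4Δ* replicate 2, which among the wildtype and *rad4Δ* arrays are those with the higher *RAD4* signal. The *rad23Δ* minus wildtype difference was -0.18 with all arrays and -0.36 without the 2 arrays whose *RAD4* signal went against the label. The *rad4Δ* minus wildtype difference moved from -0.02 to -0.29 in the same way.

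*FUS3* (YBL016W), for the MAP kinase, was read by a probe set near the bottom of the scale (2457_at, 2.51 to 3.38 over the 12 arrays) and by a pair that was brighter. Probe set 2458_g_at read 7.38, 7.65 and 7.44 in wildtype, 7.51, 7.42 and 7.22 in *rad4Δ*, 7.19, 7.11 and 7.52 in *rad23Δ*, and 7.28, 7.38 and 7.23 in *rad4Δrad23Δ*. Probe set 7391_at read 7.52, 7.63 and 7.79 in wildtype, 7.54, 7.32 and 7.49 in *rad4Δ*, 6.99, 7.53 and 7.43 in *rad23Δ*, and 7.61, 7.65 and 7.72 in *rad4Δrad23Δ*. The probe sets did not order the strains alike. The double mutant mean was 0.02 above *rad23Δ* by 2458_g_at and 0.34 above it by 7391_at, where the arrays did not overlap. Each of the 3 put *rad23Δ* below wildtype, by 0.22 to 0.33, with overlapping arrays.

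In *rad23Δ* against wildtype all 12 probe sets had a negative difference, with a median of -0.30 beside -0.01 over all 9275. For 7 of them (*PRM1*, *FIG1*, *FIG2*, *FUS1*, *AGA1*, *KAR4* and *GPA1*) the *rad23Δ* arrays all lay below the wildtype arrays, which was so for 6.50% of all probe sets. Over all probe sets this comparison had 0.280% called at an adjusted p of 0.05 and 7.15% at the same unadjusted p. The genes were chosen on this difference, so nothing follows from these counts. The *rad23Δ* mean was the lowest of the 4 strains in 12 of 12 probe sets, beside 22.7% of all, a count that the choice favours too.

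The next question was what the loss of *RAD4* did by itself and on top of the loss of *RAD23*. For *rad4Δ* minus wildtype, 7 probe sets had a negative and 5 a positive difference, from -0.22 (*PRM1*) to 0.09 (*AGA1*), with a median of -0.05. *FUS1* was the single probe set with all *rad4Δ* arrays below wildtype (background 2.93%). Without the 2 arrays in doubt 9 differences were negative and 3 positive, and the median was -0.17. *AGA1* then turned to -0.22, *FIG2* from 0.02 to -0.19 and *FUS2* from 0.03 to -0.03, and *PRM1* lay at -0.36. *FUS3* by 2457_at turned the other way, from -0.08 to 0.115, and *KAR4* rose from 0.08 to 0.115. The remaining *rad4Δ* arrays lay below the remaining wildtype arrays in 5 probe sets (*PRM1*, *FIG2*, *FUS1*, *AGA1* and *STE12*), as in 13.5% of all probe sets with 2 arrays against 2. For *rad4Δrad23Δ* minus *rad23Δ* all 12 differences were positive, from 0.02 to 0.93, and the median was 0.27 beside -0.01 over all probe sets. In 7 (*PRM1*, *FIG1*, *FIG2*, *FUS1*, *AGA1*, *KAR4* and *FUS3* by 7391_at) the double mutant arrays all lay above the *rad23Δ* arrays (background 10.4%). Both comparisons share arrays with the one that chose the genes, the first through wildtype and the second through *rad23Δ*. In all 12 probe sets the double mutant mean lay closer to the wildtype mean than the *rad23Δ* mean did. The choice of genes on the *rad23Δ* minus wildtype difference favours this, and no share over all probe sets was taken. Nothing follows from this count.

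The arrays outside the difference on which the genes were chosen are those of *rad4Δ* and *rad4Δrad23Δ*. By label they differ by the loss of *RAD23* in cells without *RAD4* and by the *HIS3* marker, but *RAD4* read 5.47 in *rad4Δ* replicate 2. Earlier results of these data were known at the choice, and the model takes its spread from all 12 arrays. With limma over all arrays and all probe sets, 0 of the 12 were called at an adjusted p of 0.05, where 0.765% of all probe sets were. At an unadjusted p of 0.05 there was 1, *FIG2*, beside 10.8% of all probe sets. Counts this small lie near those shares. The differences were negative for 10 and positive for 2 (8 and 4 without the 2 arrays in doubt), with a median of -0.08 beside -0.02 over all, of which 53.7% were negative.

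*PRM1* differed by -0.04 between *rad4Δrad23Δ* and *rad4Δ* (95% interval -0.36 to 0.29, limma adjusted p = 0.969). Leaving out the array labelled *rad4Δ* replicate 2 and wildtype replicate 3 gave 0.09 (adjusted p = 0.895).

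*FIG1* differed by -0.26 (95% interval -0.53 to 0.00, limma adjusted p = 0.478), with arrays that overlapped. *FIG2* differed by -0.34 (95% interval -0.63 to -0.05, unadjusted p = 0.0252, limma adjusted p = 0.366). All 3 of its double mutant arrays lay below the *rad4Δ* arrays (background 9.46%). *AGA1* differed by -0.26 (95% interval -0.62 to 0.10, limma adjusted p = 0.641), again with overlap. The interval of *FIG2* lay below 0, and none of these 3 genes passed the test over all probe sets. Without the 2 arrays in doubt the differences were -0.24 for *FIG1*, -0.29 for *FIG2* and -0.11 for *AGA1* (limma adjusted p = 0.601, 0.353 and 0.805).

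*FUS1* differed by 0.03 (95% interval -0.16 to 0.22, limma adjusted p = 0.952). The other 7 probe sets lay between -0.12 and 0.21 with limma adjusted p from 0.646 to 0.964. Among them the highest was *FUS3* by 7391_at, whose double mutant arrays all lay above the *rad4Δ* arrays (background 7.73%), whereas its other probe sets gave -0.12 and -0.09. *GPA1*, *KAR4* and *STE12* differed by -0.11, -0.03 and -0.06.

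**Figure D2:**
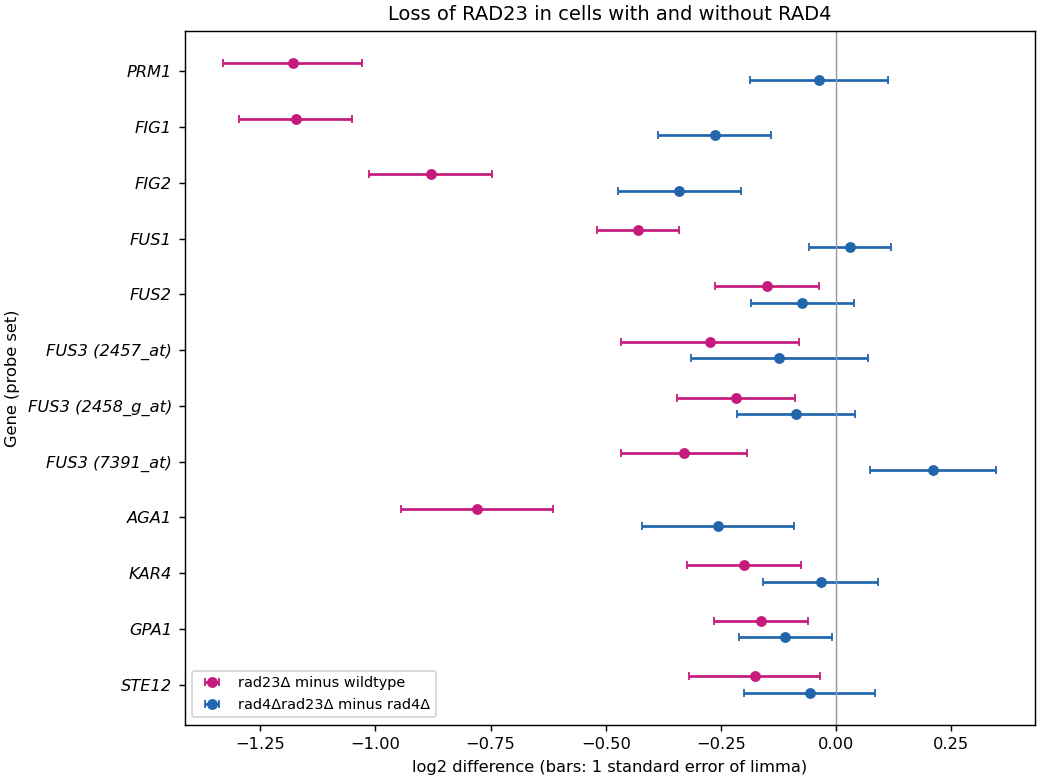
Log2 difference (horizontal axis) on loss of *RAD23* with *RAD4* present (*rad23Δ* minus wildtype, magenta, the comparison on which the genes were chosen) and with *RAD4* absent (*rad4Δrad23Δ* minus *rad4Δ*, blue) for the 12 probe sets (vertical axis); points are limma estimates from 3 arrays per strain and bars 1 standard error. *PRM1* lies at -1.18 and -0.04, *FIG1* at -1.17 and -0.26.

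The difference between these 2 effects, the interaction of the deletions, was 1.14 for *PRM1* (SE 0.21), 0.91 for *FIG1* (SE 0.17), 0.54 for *FIG2* (SE 0.19), 0.52 for *AGA1* (SE 0.23) and 0.46 for *FUS1* (SE 0.12). It was also 0.54 for *FUS3* by 7391_at (SE 0.19), and from 0.05 (*GPA1*) to 0.17 (*KAR4*) for the remaining probe sets. The interaction uses the *rad23Δ* and wildtype arrays and was not tested for these genes. It contains the *rad23Δ* minus wildtype difference with its sign reversed, so the choice of genes on that difference favours a positive value. It is given with all arrays only.

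The 10 genes followed each other unevenly. Over the 12 arrays *PRM1*, *FIG1*, *FIG2*, *FUS1* and *AGA1* correlated with each other with Pearson's r between 0.803 and 0.930 (10 pairs). Against the mean of the 12 centred probe sets, r was 0.972 for *FIG1* and 0.911 to 0.943 for the other 4 of these genes. It was 0.539 to 0.639 for *FUS2*, *GPA1*, *KAR4* and *STE12*, and 0.372 to 0.455 for the probe sets of *FUS3*. These are descriptions over arrays that share strains, and each gene is itself part of the mean.

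Outside the group, the 5 genes whose probe sets had the highest r with that mean over the 12 arrays were *ARG1* (0.972), *ARG4* (0.958), *AGP1* (0.947), *WSC4* (0.925) and *ACM1* (0.910). *ARG1* and *ARG4* encode the last enzymes of arginine synthesis, *AGP1* an amino acid permease, *WSC4* a cell wall sensor and *ACM1* an inhibitor of the anaphase-promoting complex. All 5 had their lowest strain mean in *rad23Δ*. They were picked to follow a mean that is itself lowest in *rad23Δ*. Nothing therefore follows from this or from the order of their strain means given next. *ARG1* averaged 8.86 in wildtype (SD 0.16), 8.94 in *rad4Δ* (SD 0.36), 7.22 in *rad23Δ* (SD 0.18) and 8.41 in *rad4Δrad23Δ* (SD 0.06). *WSC4* averaged 8.81, 8.61, 7.72 and 8.33 in the same order. In both, as in *FIG1*, the double mutant mean lay between *rad23Δ* and wildtype.

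With each strain's mean removed, r with the members' mean was 0.684 for *ARG1*, 0.388 for *ARG4*, 0.326 for *AGP1*, 0.728 for *WSC4* and 0.672 for *ACM1*. For the members' own probe sets it ran from -0.536 (*FUS3* by 7391_at) to 0.748 (*STE12*), so the members did not move together within strains. No share over all probe sets was taken. That members' mean was lowest on wildtype replicate 3 (-0.05) and highest on *rad4Δ* replicate 2 (0.07), the arrays in doubt. *ARG1*, *ARG4*, *WSC4* and *ACM1* likewise had their lowest wildtype and highest *rad4Δ* value there, whereas *AGP1* had its lowest *rad4Δ* value there. These r are given with all arrays only. *AGP1* lies on the same chromosome as *FUS1*, with 2 coding genes between them.

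**Figure D3:**
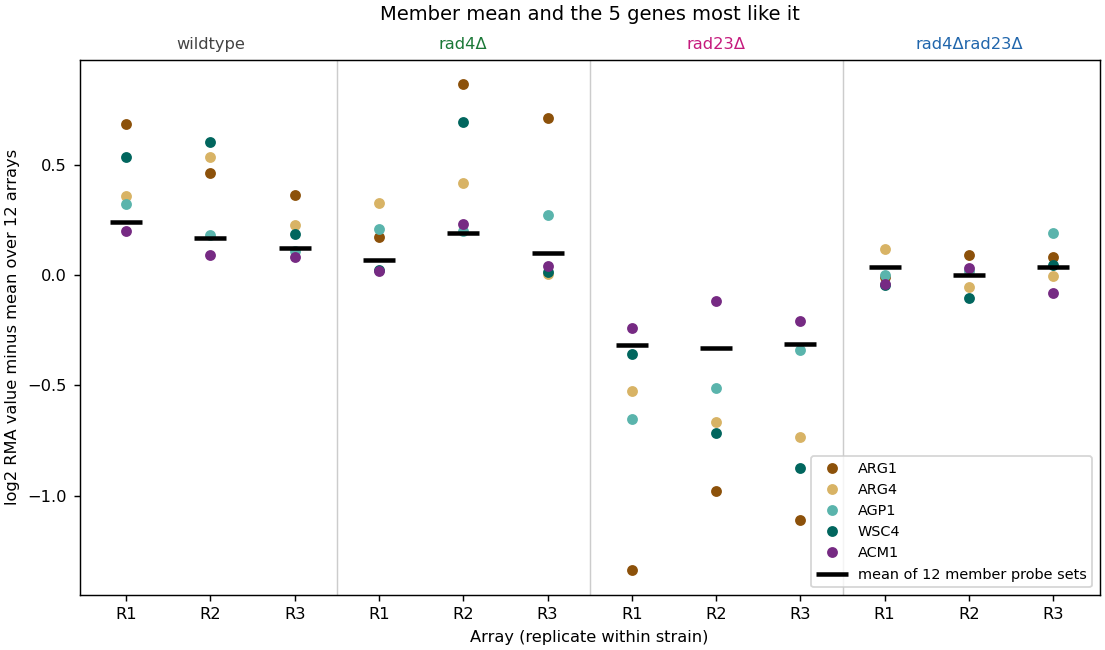
Log2 RMA value minus its mean over 12 arrays (vertical axis) on each array (horizontal axis, R1 to R3 are replicates) for the mean of the 12 probe sets (black bars) and the 5 genes with the highest correlation with it (points). The bars of *rad23Δ* lie from -0.33 to -0.31, and those of the 9 remaining arrays from 0.00 to 0.24.

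To place the 10 genes among others of the pathway, 48 further mating genes with 50 probe sets were read: pheromone-induced genes (24), components of the signalling cascade (13), alpha-specific genes (4) and **a**-specific genes (7). In *rad23Δ* against wildtype limma called 0 of the 50 (background 0.280%), the smallest adjusted p being 0.0800. At an unadjusted p under 0.05 there were 10 (background 7.15%), all 10 of them lower in *rad23Δ*. The lists were drawn up with earlier results of these data known. Nothing therefore follows from the counts in this comparison. The median difference of the 50 was -0.07, beside -0.01 over all probe sets. By list it was -0.18 for the 25 pheromone-induced probe sets and -0.06 for the 13 of the signalling cascade. It was -0.29 for the 4 alpha-specific and -0.01 for the 8 **a**-specific ones. In the same order 5, 2, 2 and 1 had an unadjusted p under 0.05. Of the 25, 17 were negative, beside 52.9% of all probe sets.

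The lowest of them was *PRM6*, named here after its values were seen. It encodes a pheromone-regulated membrane protein and read 4.83, 4.56 and 4.48 in wildtype, 4.05, 4.60 and 4.43 in *rad4Δ*, 4.0, 3.99 and 3.78 in *rad23Δ*, and 4.28, 4.16 and 4.15 in *rad4Δrad23Δ*. The *rad23Δ* arrays lay below all others. Its difference from wildtype was -0.70 (SE 0.14, limma adjusted p = 0.0915), so it did not pass. *MF(ALPHA)2*, a gene of the alpha-factor precursor, had the smallest p of the 50, with -0.50 in *rad23Δ* against wildtype (limma adjusted p = 0.0800) and -0.35 in *rad4Δrad23Δ* against *rad4Δ* (limma adjusted p = 0.178).

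**Figure D4:**
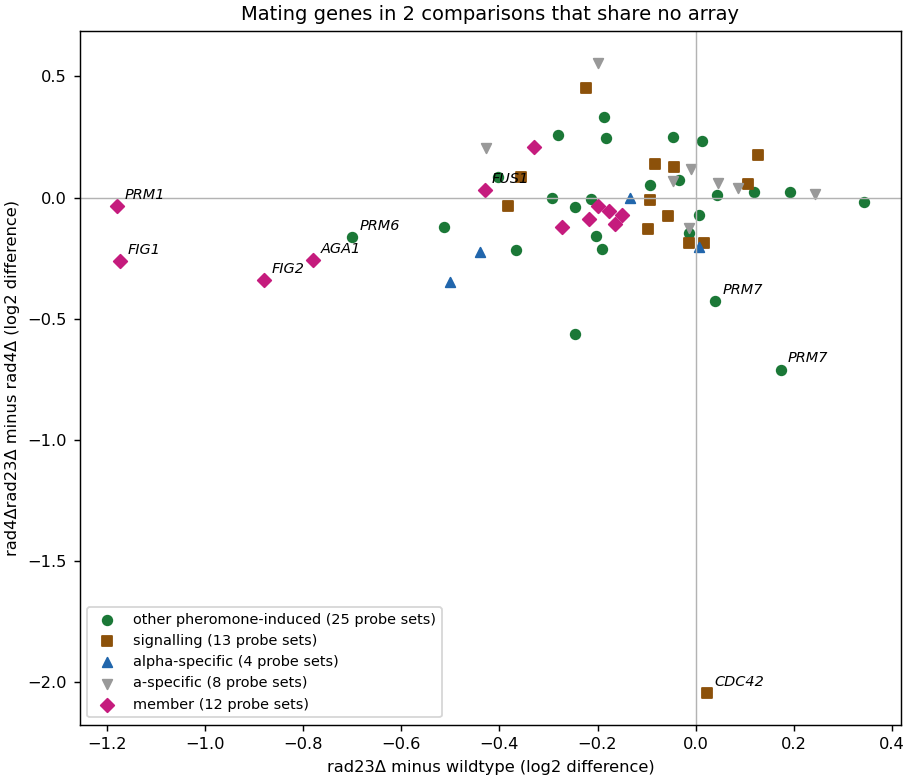
Log2 difference on loss of *RAD23* with *RAD4* present (horizontal axis, *rad23Δ* minus wildtype) and absent (vertical axis, *rad4Δrad23Δ* minus *rad4Δ*) for the 12 probe sets of the 10 genes (diamonds) and 50 of other mating genes (other symbols by list), each point from 3 arrays per strain. *PRM1*, *FIG1*, *FIG2* and *AGA1* lie farthest to the left, at -0.78 or below, and *PRM7* and *CDC42* lowest; *CDC42* rests on 1 array.

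In *rad4Δrad23Δ* against *rad4Δ*, 1 of the 50 probe sets was called, of *PRM7* (background 0.765%), and 8 had an unadjusted p under 0.05 (background 10.8%), of which 4 were higher and 4 lower. In *rad4Δ* against wildtype 0 were called (background 0%) and 5 had an unadjusted p under 0.05 (background 4.16%), of which 4 were lower. In *rad4Δrad23Δ* against *rad23Δ* both probe sets of *PRM7* were called (background 0.873%), and 10 had an unadjusted p under 0.05 (background 10.3%), of which 7 were higher.

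*PRM7* (YDL039C), named for a pheromone-regulated membrane protein, was the one listed gene called. Probe set 6513_at read 5.55, 5.72 and 5.45 in wildtype, 5.65, 5.80 and 5.54 in *rad4Δ*, 5.74, 5.79 and 5.71 in *rad23Δ*, and 4.96, 5.04 and 4.86 in *rad4Δrad23Δ*. The 3 double mutant arrays lay below the other 9, and the single mutants overlapped with wildtype. It was 0.71 lower in the double mutant than in *rad4Δ* (SE 0.10, limma adjusted p = 0.00766) and 0.79 lower than in *rad23Δ* (limma adjusted p = 0.00578). Probe set 6514_at was 0.66 lower than in *rad23Δ* (limma adjusted p = 0.0209) and 0.43 lower than in *rad4Δ* (limma adjusted p = 0.128). Without *rad4Δrad23Δ* replicate 3 the calls of 6513_at were lost, with limma adjusted p = 0.0634 against *rad4Δ* and 0.0519 against *rad23Δ*. The call against *rad4Δ* was also lost in a fit of these 6 arrays alone (limma adjusted p = 0.0648, and 0.0774 with replicate number as a block). The call of 6514_at was lost whenever 1 of the 6 arrays of the *rad23Δ* and *rad4Δrad23Δ* strains was left out (limma adjusted p = 0.0529 to 0.112).

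*CDC42*, for the GTPase of cell polarity, read 3.77 on *rad4Δrad23Δ* replicate 2 and 9.55 to 10.47 on the other 11 arrays. Its difference of -2.05 between *rad4Δrad23Δ* and *rad4Δ* (limma adjusted p = 0.603) comes from that array.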

How the data were processed

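Total RNA of untreated log-phase cells of 4 strains was hybridised to 12 Affymetrix yeast S98 arrays. Per the labels, Microarray Suite 5.0 acquired the images, and the authors normalized by robust multichip average, using affy 1.5.8 under Bioconductor 1.5 and R 2.0.1. It subtracts background, equalises probe intensities between arrays and condenses the probes of a set into 1 value. The values are log2 RMA values as deposited, and no normalization was added. The series matrix was read by column title.

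Of 9335 probe sets, 60 Affymetrix controls were left out, and 6504 of the remaining 9275 had 1 gene name in the platform annotation. A probe set shared by *PRM8* and *PRM9* was not read. The 10 genes and the lists of other mating genes were chosen with earlier results of these data known. Genes named are all members, listed genes called in a comparison, and the 5 genes with the highest r with the members' mean; exceptions are said to be such.

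All 12 arrays entered 1 limma model (version 3.58.1, R 4.3.3) with a mean for each strain (8 residual and 4.03 prior degrees of freedom). Adjusted p-values are Benjamini-Hochberg values over all 9275 probe sets, with a threshold of 0.05, and intervals are limma's. Tests are two-sided. The method was tested on simulated data. Precision is limited by having 3 arrays in a strain. Alternatives covered scaling, dim probe sets, variance model, array weights, several probe sets per gene, the strains fitted, replicate number as a block, and arrays left out. Deviations of same-numbered arrays from their strain means correlated at 0.124 to 0.273 between *rad4Δ* and *rad4Δrad23Δ*, so for these strains the numbers may pair the samples, a hint from the data that no label gives. No promoter or protein sequence was used here, so a planned motif search was not run.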

Additional observations from a re-analysis of the deposited data

How the results depend on the processing

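Of 272 tested member values under the alternatives, 259 kept their sign and stayed uncalled, 10 changed sign while uncalled, and 3 became called. The 3 came from array weights, which called 2 members in *rad4Δrad23Δ* against *rad4Δ* (*FIG2* and *AGA1*, limma adjusted p = 0.0118 and 0.0283), and from array weights estimated gene by gene, a choice made after seeing the data, which called 1 (*FIG2*, -0.40, adjusted p = 0.0388). Both kinds of array weights called many more of all probe sets in this comparison than the main fit, which called 0.765%. The 3 calls therefore cannot be read beside that share and do not by themselves set the members apart. The first estimate of array weights stopped before it converged. Over 23 alternatives the adjusted p of *FIG2* ran from 0.0118 to 0.696 and that of *PRM1* from 0.158 to 1. Of 1040 untested member values, 1024 moved by less than the spread between replicates and 16 by more.

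Among the 50 probe sets of other mating genes, calls in *rad23Δ* against wildtype were 0 with all arrays, 17 with array weights, 13 gene by gene, and 0 to 1 when an array was left out (*PRM6*, adjusted p = 0.0393, without *rad4Δ* replicate 1). In *rad4Δrad23Δ* against *rad4Δ* they were 1, then 2 after quantile normalization, 12 with array weights, 4 gene by gene, 0 with the compared strains only (with and without the block below), and 0 to 1 when an array was left out. In *rad4Δ* against wildtype they were 0, then 5 with array weights and 1 without the 2 arrays whose *RAD4* signal went against the label (*PRM10*, 0.60, adjusted p = 0.0461). In *rad4Δrad23Δ* against *rad23Δ* they were 2, then 4 after quantile normalization, 1 without the dimmest 25% of probe sets, 3 with a variance trend, 3 without the 2 arrays in doubt (adding *AFR1*, adjusted p = 0.0364), 9 with array weights, 9 gene by gene, 1 with gene means, 5 with the compared strains only, and 0 to 2 when an array was left out. Wherever either kind of array weights raised these counts, many more of all probe sets were called than in the main fit too. Calls over all probe sets also rose where leaving out the 2 arrays in doubt, or fitting the compared strains only, raised a count. The raised counts therefore cannot be read beside the backgrounds of the main fit, and nothing about mating genes follows from them. Of 63 repeats of the *PRM7* calls 53 held.

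Same-numbered arrays of different strains correlated at -0.366 to 0.609 in their deviations from the strain means, over 0.1 in 10 of 18 pairs. Between *rad4Δ* and *rad4Δrad23Δ* all 3 were over 0.1 (0.124 to 0.273), and in no other pair of strains were all 3. With replicate number as a block for all 12 arrays, 0 members were called and 0, 1, 0 and 3 probe sets of other mating genes in the comparisons in the order above. With the block in a fit of *rad4Δ* and *rad4Δrad23Δ* alone, chosen after seeing the data, 0 members and 0 others were called, the smallest adjusted p of a member being 0.299 (*FIG2*). Rescaling moved the median of all probe sets by under 0.1.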
